A study of Mus musculus with 36 samples.

Results

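Oxidative phosphorylation genes are split between 2 genomes. The 13 mitochondrially encoded proteins and the nuclear genes whose symbols begin with Nduf, Uqcr, Sdh (a to d), Cox4 to Cox8 or Atp5 were chosen by name. The naming rule holds no values but was made with earlier results of these data known, and 17 pseudogenes were left out. This gave 109 genes, 13 mitochondrial and 96 nuclear. The tissue, LPL and IEL files held 108 of them among 27179 genes and those of CD8 cells held 108 among 78275. Ndufb1 was the missing one in the files and Ndufb4b in the tables. Of the nuclear genes 39 encode subunits of complex I, 8 complex I assembly factors, 4 complex II, 8 complex III, 20 complex IV and 17 ATP synthase. The mitochondrial genes encode 7 subunits of complex I, 1 of complex III, 3 of complex IV and 2 of ATP synthase.

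Complexes I to IV of the inner mitochondrial membrane pass electrons from NADH and succinate to oxygen and, except complex II, pump protons as they do so. ATP synthase uses the proton gradient to make ATP. Complex II is wholly nuclear, while the other complexes need subunits from both genomes. Mitochondrial genes are copied from both strands as long transcripts and cut into single RNAs, and nuclear subunits are made in the cytosol and imported. Enterocytes use this pathway for absorption, and T cells change their use of it when they are activated.

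The RNA came from small intestine, and the mice either lacked (knockout, KO) or kept (wild type, WT) the long noncoding RNA lnc13. Intraepithelial lymphocyte (IEL) preparations, lamina propria lymphocyte (LPL) preparations and whole tissue came from mice named lnc13-KO-DQ8, with 2 libraries of each, and from mice named lnc13-WT-DQ8, with 2 of each. Both genotypes thus carried DQ8, and both had been challenged with gluten. CD8 IELs from lnc13-KO and lnc13-WT mice, whose titles name no DQ8, gave 3 KO and 3 WT libraries after 48 h of culture in IL-15, a cytokine that activates these cells, and 3 of each labelled unstimulated. These are 24 of the 36 samples of the series, and the other 12 (6 CD8ab and 6 RNA antisense purification) were not analysed here. lnc13 itself was not analysed here, so its RNA did not check the genotype labels, and ages and pooling are not given in the sources used here. Where nothing says that libraries came from separate animals beyond the label of biological replicate, p-values measure only the spread between these libraries.

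Depth, as reads counted in genes per library, was 14724754 to 26997371 with IL-15, 16428511 to 23762128 without it, and 10186522 to 13620975 in the IEL, LPL and tissue libraries. The IEL and LPL preparations did not hold lymphocytes alone. The 12 epithelial marker genes summed to 12925 to 15092 CPM (read counts scaled to a common library size with TMM factors) in IEL and 10999 to 14648 in LPL, against 26527 to 38958 in tissue. The 16 T cell markers summed to 409 to 1345 CPM in IEL and 15.8 to 365 in LPL, against 63.7 to 130 in tissue, and over the CD8 libraries to 16541 to 22263 CPM of gene reads, with no TMM factor. LPL libraries also held 5838 to 11786 CPM of 12 pancreatic genes. WT LPL replicate 1 had 365 CPM of T cell and 5205 CPM of B and plasma cell markers, the most of the LPL libraries. The tissue libraries differed by replicate number in both genotypes. The lactase gene Lct had 211 and 81.2 CPM in KO and WT replicate 1 against 0.359 and 0.33 in KO and WT replicate 2, and the Y-linked gene Ddx3y was at 38.7 and 34.0 CPM in replicate 2 alone. Lct was at 1123 to 1826 CPM in IEL, above all tissue libraries, and at 6.24 to 52.9 in LPL. Ddx3y was at 0 in IEL and at most 0.0618 CPM in LPL. KO LPL replicate 1 stood apart from the other LPL libraries in mitochondrial reads, and results that rest on it are given without it too.

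The share of gene reads from the mitochondrial genome ranged over a far wider scale than the nuclear share. In IEL the 13 mitochondrial genes took 21.2% and 17.8% of gene reads in KO libraries and 17.2% and 22.3% in WT libraries. In LPL they took 24.1% and 5.65% in KO and 10.2% and 7.23% in WT, and in tissue 3.63% and 2.44% in KO and 3.95% and 3.11% in WT. All IEL libraries thus lay above all tissue libraries, and KO LPL replicate 1 lay above the highest IEL library. CD8 cells had lower shares than IEL and LPL, and shares in unstimulated cells overlapped with those in tissue. In the IL-15 set they were 0.755%, 0.819% and 0.686% in KO and 1.15%, 1.26% and 1.07% in WT, and in unstimulated cells 4.21%, 1.91% and 2.04% in KO and 1.73%, 3.19% and 2.72% in WT.

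The nuclear members together stayed between 1.29% and 2.08% of gene reads in all 24 libraries. They took 1.94% and 1.89% in KO IEL and 1.87% and 1.54% in WT IEL, 1.61% and 2.05% in KO LPL and 1.46% and 1.99% in WT LPL, and 1.91% and 1.29% in KO tissue and 2.08% and 1.40% in WT tissue. The low tissue values were both from replicate 2. In the IL-15 set they took 1.65%, 1.72% and 1.68% in KO and 1.73%, 1.76% and 1.73% in WT, and in unstimulated cells 1.48%, 1.53% and 1.47% in KO and 1.41%, 1.52% and 1.69% in WT. Mitochondrial reads were 9.18 to 14.4 times the nuclear reads in IEL, 2.76 to 15.0 times in LPL and 1.90 to 2.21 times in tissue. The ratio was 0.408 to 0.717 in the IL-15 set, the one set in which nuclear reads outnumbered mitochondrial ones, and 1.23 to 2.85 in unstimulated cells. The CD8 libraries were made with another kit and counted on another annotation, so the step from the preparations to CD8 cells cannot be told apart from these, and the 2 CD8 tables were normalised separately and are set side by side without a test.

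**Figure D1:**
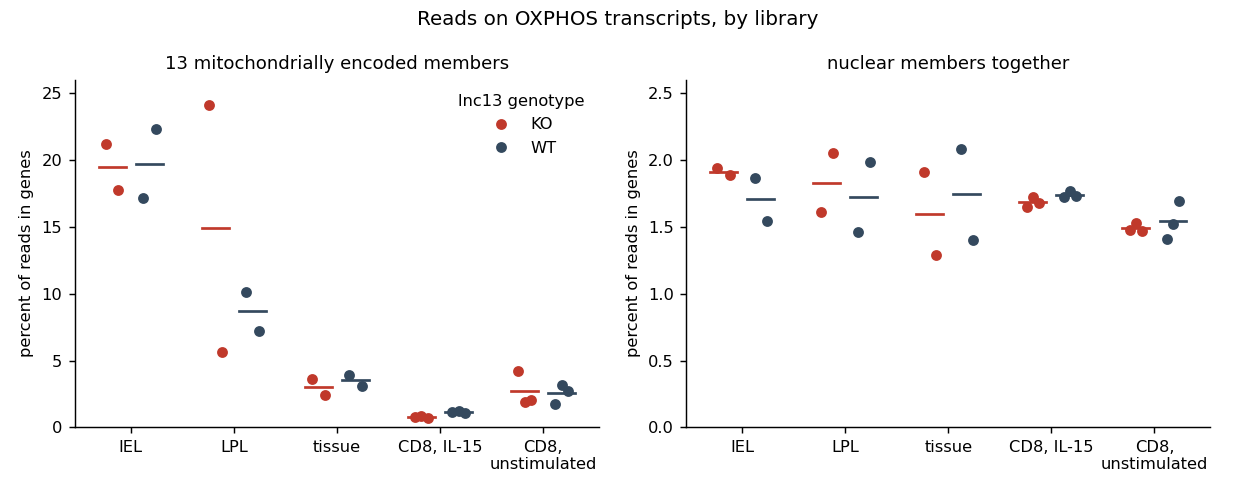
Share of gene reads in each library (percent, axes from 0), with the 13 mitochondrially encoded genes in one panel and the nuclear oxidative phosphorylation genes in the other, by set, KO left of WT, 1 point per library and a bar at each mean. Mitochondrial shares span 0.686% to 24.1%, whereas nuclear shares stay between 1.29% and 2.08%.

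Reads were spread very unevenly along the mitochondrial genome, and in a different order in the 2 kinds of library. Per kilobase of gene, mt-Co1, the catalytic core of complex IV, came first in IEL, LPL and tissue, followed by mt-Cytb, the only mitochondrial subunit of complex III, and mt-Nd1, a membrane subunit of complex I. mt-Co1 (mitochondrial genome, GRCm38, start 5328, 1545 bases) held 49.6% ± 1.23 of mitochondrial reads in IEL, 45.03% ± 1.37 in LPL and 48.9% ± 4.44 in tissue (SD, n = 4 each). mt-Cytb (start 14145, 1144 bases) held 17.97% ± 0.774 in IEL, 19.7% ± 0.708 in LPL and 17.5% ± 0.596 in tissue. In CD8 cells mt-Cytb came first, with 48.0% ± 2.56 in the IL-15 set and 34.1% ± 3.65 in unstimulated cells (SD, n = 6 each), and mt-Co1 second, with 22.7% ± 1.599 and 27.9% ± 2.15 in those sets. The order below mt-Nd1 varied, and mt-Nd2, mt-Nd4, mt-Nd5 and mt-Nd6 lay close to each other per kilobase.

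The 6 neighbouring genes mt-Co2, mt-Atp8, mt-Atp6, mt-Co3, mt-Nd3 and mt-Nd4l, which encode subunits of complexes IV and I and of ATP synthase, were thinly covered in every library. Together they held 1.13% to 2.20% of mitochondrial reads in IEL, LPL and tissue and 0.034% to 0.141% in CD8 cells. In the CD8 tables they had 131 to 331 reads per library, while gene models listed there as near-identical nuclear copies of mitochondrial genes held 282 to 1073. No reads stood under the names of those copies for tissue, LPL and IEL, where it was not checked that the copies are listed. Values of these 6 genes are therefore uncertain, and mt-Nd4l was listed at 0 in 1 library of each CD8 set.

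**Figure D2:**
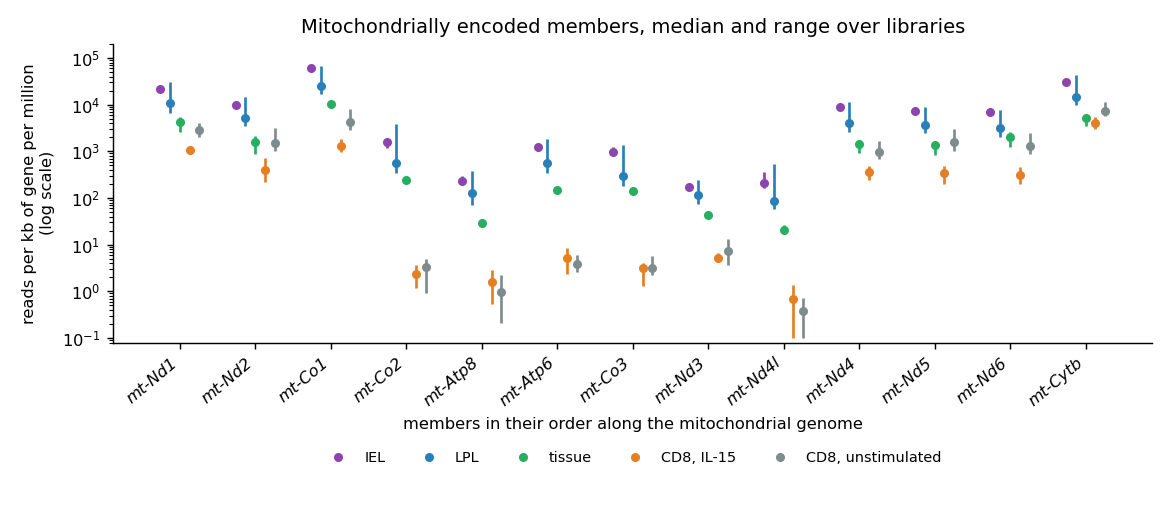
Reads per kilobase of gene, scaled to the gene reads of each library without TMM factors (log scale), for each of the 13 mitochondrial genes in genome order, with the median as a point and the range over libraries as a line, by set. mt-Co1 and mt-Cytb lead, and the 6 genes between mt-Co1 and mt-Nd4 lie far lower, with libraries at 0 drawn at the lower end of the axis.

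IEL and LPL preparations were compared with whole tissue to ask how the cell preparations differ from the intact gut, over both genotypes and with edgeR's quasi-likelihood test adjusted over 14716 genes. Mitochondrial transcripts were higher in both preparations, while most nuclear subunits were not called in IEL and 30 of 88 nuclear members were lower in LPL, where 28.0% of all genes were. Tissue was frozen and extracted with TRIzol and cells with a column kit, so the preparation and the extraction cannot be told apart. In bulk RNA, fewer cells of a type and less RNA per cell cannot be told apart either. Immediate early and heat shock genes, a sign of handling, were also higher, at 7473 to 9492 CPM in IEL and 14331 to 16849 in LPL against 1619 to 2346 in tissue (13 of 14 genes called in IEL and 14 of 14 in LPL). Levels of Lct and of the Y-linked gene Ddx3y also differed between preparations and tissue. The part of handling, of the epithelial share, of the pancreatic RNA and of what sets Lct and Ddx3y apart in these results was not tested.

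All 13 mitochondrial genes were higher in IEL than in tissue, with a median log2 difference of 2.47, where 21.9% of all genes were called higher and 23.1% lower and the median of all genes was 0.05. mt-Co1 had 107327 and 92764 CPM in KO IEL and 79655 and 113948 in WT IEL, against 19123 and 18062 in KO tissue and 17514 and 17895 in WT tissue. The IEL and tissue libraries did not overlap, and the log2 difference was 2.44 (SE 0.50, adjusted p = 0.00461). mt-Cytb had 42358 and 31287 CPM in KO IEL and 29345 and 40022 in WT IEL, against 7767 and 5602 in KO tissue and 6729 and 6177 in WT tissue (log2 2.44, SE 0.50, adjusted p = 0.00489). The smallest difference was that of mt-Nd6, the one gene of the set encoded on the opposite strand, at 1.69 (SE 0.47, adjusted p = 0.0173). mt-Nd4l had the largest at 3.25 (SE 0.63, adjusted p = 0.00385), on 45.6 to 112 CPM in IEL against 6.85 to 7.77 in tissue.

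In LPL 11 of 13 mitochondrial genes were higher than in tissue, with a median log2 difference of 1.61, where 27.3% of all genes were called higher and 28.0% lower. mt-Co1 had 107739 and 20468 CPM in KO LPL and 36960 and 27758 in WT LPL (log2 1.33 against tissue, SE 0.48, adjusted p = 0.0404). All LPL libraries lay above the tissue libraries, and KO LPL replicate 1 was the highest. mt-Co3 (log2 1.42, SE 0.55, adjusted p = 0.0514) and mt-Nd6 (0.67, SE 0.46, adjusted p = 0.235) did not pass. Without KO LPL replicate 1 the median was 0.79 and 5 genes passed. The count was also 4 without KO tissue replicate 2, 4 without WT tissue replicate 2, 6 without WT tissue replicate 1 and 7 without WT LPL replicate 1.

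No mitochondrial gene was called between IEL and LPL with all libraries in the fit. All 13 log2 differences were above 0, with a median of 0.81, and 0 passed edgeR's test, where 11.5% of all genes were called higher and 7.92% lower in IEL. The smallest p was that of mt-Co1 (log2 1.11, SE 0.48, unadjusted p = 0.0442, adjusted p = 0.133), and DESeq2 called 1 gene. Without KO LPL replicate 1 all 13 passed, with a median of 1.76, and 5.13% of all genes were then called higher. That single library thus decided this call.

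Nuclear complex I genes showed few calls in IEL against tissue. Of 88 nuclear members tested 2 were higher and 8 lower, where 21.9% and 23.1% of all genes were, and the median log2 difference of -0.08 turned to 0.07 without KO tissue replicate 1 and 0.03 without WT tissue replicate 1. Ndufs4, an accessory subunit of complex I, was lower, with 71.0 and 66.9 CPM in KO IEL and 54.4 and 55.1 in WT IEL against 86.6 and 95.7 in KO tissue and 86.0 and 87.6 in WT tissue (log2 -0.53, SE 0.11, adjusted p = 0.00574). Ndufa7, another accessory subunit, was also lower (-0.30, SE 0.10, adjusted p = 0.0409). Ndufaf4, an assembly factor of complex I, was higher, with 36.5 and 33.0 CPM in KO IEL and 30.0 and 23.0 in WT IEL against 16.9 and 16.0 in KO tissue and 21.4 and 14.1 in WT tissue. All IEL libraries lay above all tissue libraries (log2 0.83, SE 0.19, adjusted p = 0.00699).

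Of the other complexes, complex IV had the most calls, and its 4 lower genes of 15 lay near the 23.1% of all genes called lower. Cox5a, Cox6a1 and Cox8a, nuclear subunits of complex IV, were lower in IEL by log2 differences of -0.55, -0.45 and -0.51 (SE 0.19, 0.16 and 0.17, adjusted p = 0.0404, 0.0461 and 0.0345). Cox6b2, the testis form of a complex IV subunit, was lower, with 0.6 to 1.07 CPM in IEL against 2.17 and 12.9 in KO tissue and 1.04 and 8.74 in WT tissue, so the high libraries were the tissue replicates numbered 2. Cox6a2, the heart and muscle form, was higher on very few reads, with 1.22 to 1.70 CPM in IEL against at most 0.247 in tissue. In complex III Uqcrb was lower (log2 -0.57, SE 0.14, adjusted p = 0.0103), and in ATP synthase only Atp5mpl of 17 genes was lower (-0.38, SE 0.14, adjusted p = 0.0474). The calls came to 4 of 15 lower in complex IV, 2 of 38 in complex I, 1 of 7 in complex III and 1 of 17 in ATP synthase, and to 0 of 3 in complex II. The count of lower genes was 2 to 4 when any 1 of the 8 libraries was left out, and the count of higher genes was 5 without KO tissue replicate 1 and 1 without KO tissue replicate 2.

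In LPL all calls among the complex I assembly factors were higher and all calls among the other nuclear members lower. Of 88 nuclear members 30 were lower and 5 higher than in tissue, where 28.0% of all genes were lower and 27.3% higher, so the count of lower genes lay near the share of all genes. The median log2 difference was -0.28, against 0.03 for all genes. The 5 higher genes, 3 with a replicate block, were among the 8 assembly factors, namely Ndufaf4, Ndufaf7, Ndufaf6, Ndufaf2 and Ndufaf1, by log2 differences of 1.12, 0.90, 0.85, 0.73 and 0.69. Ndufaf4 had 36.5 and 42.4 CPM in KO LPL and 28.4 and 41.7 in WT LPL (SE 0.19, adjusted p = 0.00107). Ndufaf7, a methyltransferase that acts on a complex I subunit, had 21.0 and 21.4 CPM in KO LPL and 15.1 and 21.9 in WT LPL, against 11.8 and 8.86 in KO tissue and 13.5 and 8.25 in WT tissue, with no overlap (SE 0.21, adjusted p = 0.00629).

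Complex IV was lower in 9 of 15 genes in LPL, where 28.0% of all genes were lower. Cox5a had 186 and 181 CPM in KO LPL and 134 and 198 in WT LPL, against 398 and 294 in KO tissue and 353 and 231 in WT tissue (log2 -0.87, SE 0.19, adjusted p = 0.00434). Cox4i1, the common form of a regulatory subunit, had 489 and 547 CPM in KO LPL and 387 and 548 in WT LPL, against 941 and 854 in KO tissue and 796 and 676 in WT tissue (-0.72, SE 0.16, adjusted p = 0.00445). Neither gene's LPL libraries overlapped its tissue libraries. The tissue-restricted partner forms Cox4i2, Cox8b and Cox8c were at or near 0 in all tissue, LPL and IEL libraries and were not tested.

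Complex II, the wholly nuclear complex, was lower in LPL in Sdhb, its iron-sulphur subunit, and Sdhc, a membrane anchor, 2 of 3 genes tested. Of all genes 28.0% were lower there. Sdhb had 200 and 207 CPM in KO LPL and 157 and 206 in WT LPL, against 346 and 248 in KO tissue and 299 and 241 in WT tissue (log2 -0.56, SE 0.16, adjusted p = 0.0146). Sdhc had a log2 difference of -0.64 (SE 0.22, adjusted p = 0.0319). Complex III was lower in 2 of 7 genes, Uqcrb (-0.70, SE 0.14, adjusted p = 0.00283) and Uqcrh (-0.44, SE 0.13, adjusted p = 0.0162). ATP synthase was lower in 8 of 17, with Atp5md, a small membrane subunit, lowest in p (-0.63, SE 0.16, adjusted p = 0.00943), and complex I in 9 of 38, led by Ndufa1 (-0.53, SE 0.11, adjusted p = 0.00316). The count of 30 fell to 11 without KO tissue replicate 1, 14 without WT tissue replicate 1, 15 without KO LPL replicate 1, 14 without KO LPL replicate 2, 12 without WT LPL replicate 1 and 11 in a fit of LPL and tissue alone.

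Between IEL and LPL 3 of 88 nuclear genes were called, all higher in IEL. Over all genes 11.5% were called higher and 7.92% lower, a larger share in each direction. Cox7a1, the heart and muscle form of a complex IV subunit, had 69.8 and 79.5 CPM in KO IEL and 47.1 and 59.2 in WT IEL, against 20.4 and 26.3 in KO LPL and 14.6 and 25.3 in WT LPL (log2 1.54, SE 0.36, adjusted p = 0.0172). Sdhb (0.59, SE 0.16, adjusted p = 0.0301) and Ndufa1 (0.36, SE 0.11, adjusted p = 0.0451) were the others, and the median of 88 was 0.18. The count was 0 without KO IEL replicate 1, KO IEL replicate 2, WT IEL replicate 2, KO LPL replicate 1 or WT LPL replicate 1, 1 without WT IEL replicate 1, and 16 with a replicate block.

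**Figure D3:**
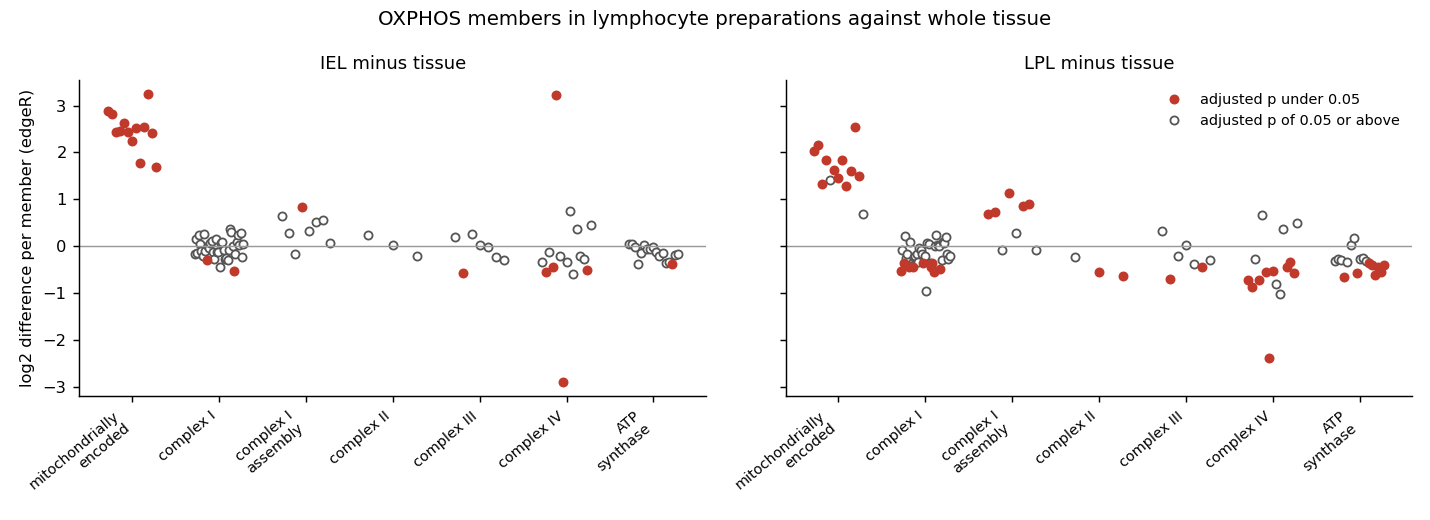
Log2 differences of each tested gene for IEL against tissue and LPL against tissue, by genome and complex, with calls at an adjusted p under 0.05 marked. The mitochondrial genes lie at 1.69 to 3.25 in IEL and 0.67 to 2.55 in LPL, the nuclear subunits centre near or below 0, and 5 of the 8 assembly factors are called higher in LPL.

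Promoters of 78 of the 96 nuclear members were found in RefSeq (GRCm38.p6), as 83 windows of 300 bases that end 50 bases after the start. Short cores that such promoters are known for were searched on both strands without mismatch. The core CGCATGCG, bound by nuclear respiratory factor 1, was in 13.3% of the members' windows and 1.87% of all 32851 windows. The core CCGGAAG of ETS-type factors was in 22.9% of the members' windows and 8.86% of all, and AAGATGGC, the core of YY1, was in 13.3% of the members' windows and 2.75% of all. At least 1 of the 3 was in 41.0% of the members' windows and 12.6% of all. In the 250 bases before the start alone the 3 cores were in 9.64%, 16.9% and 1.2% of the members' windows and in 1.55%, 6.91% and 1.56% of all. A match is a description of letters and not a bound site.

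Promoters that hold these cores belong to genes with different results, and 3 of them are shown for that. Ndufaf4 was higher in IEL and LPL, Cox6a1 was lower in both, and Atp5l, a membrane subunit of ATP synthase, was lower in LPL (log2 -0.41, SE 0.14, adjusted p = 0.0347). Each holds the nuclear respiratory factor 1 core, and Cox6a1 and Atp5l also hold the ETS-type core on the opposite strand, read here as CTTCCGG. The 250 bases before each start are given with these cores in capitals. Ndufaf4 lies on chr4:24897833-24898082 (plus strand), Cox6a1 on chr5:115348959-115349208 (minus strand) and Atp5l on chr9:44920743-44920992 (minus strand).
Ndufaf4: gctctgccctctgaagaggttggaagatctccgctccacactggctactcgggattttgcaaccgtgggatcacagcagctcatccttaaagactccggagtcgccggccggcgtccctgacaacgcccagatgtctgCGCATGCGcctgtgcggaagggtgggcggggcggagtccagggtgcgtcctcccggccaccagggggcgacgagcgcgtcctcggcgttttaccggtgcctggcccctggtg
Cox6a1: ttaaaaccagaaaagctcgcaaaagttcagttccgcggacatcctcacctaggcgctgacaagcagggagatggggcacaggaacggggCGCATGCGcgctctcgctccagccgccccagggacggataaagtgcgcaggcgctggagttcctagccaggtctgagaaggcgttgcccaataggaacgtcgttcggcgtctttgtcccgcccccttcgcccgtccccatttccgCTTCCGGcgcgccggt
Atp5l: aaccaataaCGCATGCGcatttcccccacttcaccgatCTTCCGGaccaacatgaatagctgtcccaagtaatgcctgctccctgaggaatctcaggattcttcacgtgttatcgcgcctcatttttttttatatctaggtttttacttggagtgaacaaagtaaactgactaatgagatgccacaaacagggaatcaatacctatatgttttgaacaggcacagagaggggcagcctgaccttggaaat

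Of genes outside the 109, those for mitochondrial transcription and RNA handling were called higher more often than lower in the preparations. Over all genes 21.9% were higher and 23.1% lower in IEL, and 27.3% and 28.0% in LPL. Against tissue, 9 of 16 genes for mitochondrial transcription and replication were higher in IEL (median log2 0.83) and 11 in LPL (1.00), with 0 lower in either. Polrmt, the mitochondrial RNA polymerase, had 49.5 and 38.3 CPM in KO IEL and 43.0 and 42.8 in WT IEL, and 30.4 and 47.5 in KO LPL and 30.9 and 47.8 in WT LPL, against 16.96 and 10.54 in KO tissue and 21.1 and 11.5 in WT tissue. Its log2 differences were 1.53 in IEL (SE 0.27, adjusted p = 0.00224) and 1.39 in LPL (SE 0.27, adjusted p = 0.00229). Of 17 genes for mitochondrial RNA handling 12 were higher in IEL (median 0.86) and 13 in LPL (1.07), with 0 lower. Fastkd2, which binds mitochondrial RNA, rose by 1.06 in IEL and 1.75 in LPL. Of 77 mitochondrial ribosome genes 8 were higher and 3 lower in IEL (0.28), a smaller share than over all genes in each direction, and 42 and 4 in LPL (0.51).

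Genes for ATP exchange and uncoupling were called lower only. Of 9 such genes tested 0 were higher and 3 lower in IEL (median -0.29), and 0 and 7 in LPL (-0.81), where 23.1% and 28.0% of all genes were lower. Slc25a4, an ADP/ATP carrier of muscle and heart, had 14.5 and 23.6 CPM in KO IEL and 8.65 and 19.2 in WT IEL, and 10.6 and 5.81 in KO LPL and 14.9 and 5.58 in WT LPL, against 113 and 99.6 in KO tissue and 116 and 153 in WT tissue. Smooth muscle markers were also lower there, at 17.8 to 23.5 CPM in IEL and 49.8 to 219.9 in LPL against 933 to 4017 in tissue, and their part in this was not tested. Slc25a5, a carrier of many tissues, fell by 1.06 in IEL and by 1.66 in LPL on the log2 scale. Cycs, which encodes cytochrome c, fell by 1.10 in IEL and by 1.42 in LPL, among 22 carrier and supercomplex genes of which 10 were higher and 6 lower in IEL and 7 and 8 in LPL. Of 11 biogenesis regulators 4 were higher in each preparation, and 0 were lower in IEL and 1 in LPL, with the coactivator gene Ppargc1b higher by 2.02 in IEL and 2.26 in LPL. Of 41 assembly genes outside the naming rule 9 were higher in IEL and 12 in LPL, near the shares of 21.9% and 27.3% over all genes, and 2 and 4 were lower, and of 18 citric acid cycle genes 2 and 2 in IEL and 3 and 5 in LPL.

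The knockout was compared with wild type in each set to ask whether loss of lnc13 moves the genes of either genome. No member passed edgeR's or limma's test in any of the 5 sets, and neither did any gene at all. The share called was 0.0% of 14716 genes in tissue, LPL and IEL, of 17208 in unstimulated CD8 cells and of 16371 in the IL-15 set. At an unadjusted p under 0.05 there were 463 genes in tissue, 448 in LPL, 120 in IEL, 575 in unstimulated CD8 cells and 1841 in the IL-15 set. DESeq2 did call genes. It called 1 gene lower in IEL, 1 lower in LPL, and 3 higher and 1 lower in tissue. On the recovered reads it called 93 higher and 21 lower with IL-15, 3 of them members, and 297 higher and 503 lower without it, 0 of them members. No gene was called for a difference in KO effect between tissue, LPL and IEL either (0.0% of 14716 called in each of the 3 tests of the difference). With 2 libraries per group these tests do not show that the KO effects are alike.

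In the IL-15 set 8 of the 12 tested mitochondrial genes were lower in every KO library than in every WT library. These used the deposited size factors and included all 7 well covered genes, of which mt-Nd2 overlapped when scaled to gene reads. With the deposited size factors 9.16% of all genes were lower and 11.1% higher without overlap. The 13 genes together made 0.753% ± 0.0664 of reads in KO and 1.16% ± 0.0969 in WT (SD, n = 3 each), a ratio of 0.648. The median log2 difference was -0.62 against 0.08 for all genes tested. None passed limma's test (0 calls by edgeR on the recovered whole reads as well), and 7 of 12 had an unadjusted p under 0.05.

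mt-Cytb had 58188, 64955 and 57235 normalised reads in KO and 98944, 115196 and 98825 in WT. All KO libraries lay below all WT libraries (log2 -0.79, SE 0.11, unadjusted p = 0.000114, limma adjusted p = 0.349). A DESeq2 Wald test on the recovered whole reads, chosen after the data were seen, called mt-Cytb (adjusted p = 0.0159), mt-Nd5 (0.0308) and mt-Nd4 (0.0347) lower, where 0.114% of all genes were called lower. Across all alternatives the adjusted p of mt-Cytb ranged from 0.0159 to 0.865.

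The complex I genes of the mitochondrial genome followed the same order of libraries. mt-Nd4 had 6808, 7204 and 5591 normalised reads in KO and 11247, 12855 and 10105 in WT (log2 -0.80, SE 0.14, adjusted p = 0.349). mt-Nd5 had 8800, 8968 and 5989 in KO and 14128, 16562 and 13547 in WT (-0.92, SE 0.18, adjusted p = 0.349). mt-Nd1 had 14367, 15958 and 13928 in KO and 22289, 23466 and 19775 in WT (-0.57, SE 0.11, adjusted p = 0.349). Among these KO replicate 3 was the lowest library each time. mt-Nd2 and mt-Nd6 differed by -0.89 and -0.77 (SE 0.31 and 0.22, adjusted p = 0.417 and 0.411). The order of mt-Nd2 depended on the size factors. As reads per kilobase of gene, scaled to the gene reads of each library, it overlapped. It was then at 361, 410 and 219 in KO and 559, 712 and 393 in WT.

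In complex IV mt-Co1 had 31550, 33084 and 24551 normalised reads in KO and 51420, 52439 and 39188 in WT (log2 -0.68, SE 0.16, adjusted p = 0.397). The thinly covered genes differed, with mt-Co2 at 32.1, 29.1 and 24.3 in KO and 46.5, 26.8 and 14.6 in WT. The mitochondrial ribosomal RNAs, which poly(A) selection keeps only in part, were 0.231%, 0.335% and 0.0820% of reads in KO and 0.338%, 0.305% and 0.301% in WT, with overlap. Other lists moved with genotype on the same scale. The 14 immediate early and heat shock genes summed to 58036 to 65565 normalised reads in KO and 72175 to 74647 in WT, the 16 T cell markers to 281062 to 333177 in KO and 347582 to 398668 in WT, and the 12 macrophage and dendritic cell markers to 624 to 807 in KO and 840 to 952 in WT, with all KO libraries lower. Of the last list C1qa, C1qc and Lyz2 were at 0. Epithelial markers overlapped, at 3672 to 5381 in KO and 3519 to 5116 in WT. As shares of gene reads the T cell markers overlapped too, at 17075 to 19448 CPM in KO and 18364 to 22263 in WT, while the immediate early and heat shock genes did not, at 3526 to 3844 CPM in KO and 3944 to 4031 in WT. The part of these in the result was not tested. Scaled to total reads without mitochondrial genes, in place of the deposited size factors, the median of the 12 was -0.50, against 0.20 for all genes. On that scale 7 were lower without overlap, and the well covered mt-Nd2 was not among them. With the deposited size factors, leaving out 1 library at a time moved the median of the 12 between -0.55 and -0.82.

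**Figure D4:**
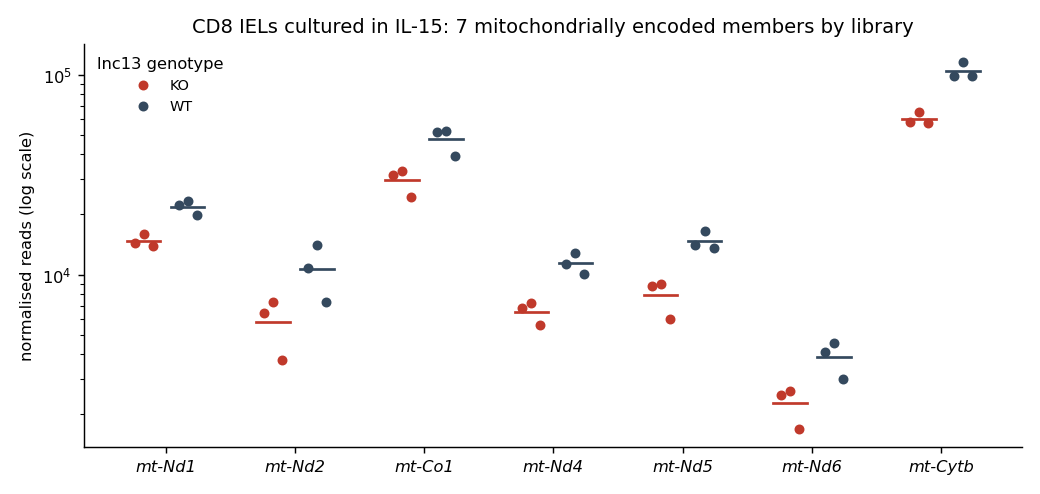
Normalised reads (log scale) of the 7 well covered mitochondrial genes in CD8 IELs cultured in IL-15, with 3 KO libraries left of 3 WT libraries and the bar at each mean. For every gene shown all KO points lie below all WT points, as for mt-Cytb at 57235 to 64955 against 98825 to 115196. For mt-Nd2 the margin is narrow, and its libraries overlap when scaled to gene reads.

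Most nuclear subunits also had lower values in the same KO cells. Of 89 tested, 36 were lower and 1 higher without overlap, where 9.16% of all genes were lower and 11.1% higher, and 79 log2 differences were below 0 with a median of -0.17, where 43.6% of all genes were below 0. Values were also scaled to total reads without mitochondrial genes, in place of the deposited size factors. Then 14 were lower and 4 higher without overlap (4.61% and 15.7% of all genes). On that scale 59 were below 0 (32.8% of all genes), and the median was -0.05, against 0.20 for all genes. Mitochondrial genes held 0.686% to 1.26% of gene reads in this set. Their removal and the change of size factors were not tested apart. On the deposited scale complex I was below 0 in 37 of 38 genes and its assembly factors in 8 of 8. Complex II was below 0 in 3 of 4, complex III in 8 of 8, complex IV in 12 of 14 and ATP synthase in 11 of 17. Ndufa13, a complex I subunit, had 7434, 7788 and 6085 normalised reads in KO and 9618, 10181 and 10513 in WT (-0.52, SE 0.12, unadjusted p = 0.00363, adjusted p = 0.391). Sdhb had 7342, 6571 and 7627 in KO and 9007, 9074 and 8653 in WT (-0.31, SE 0.10, adjusted p = 0.417). Neither gene's libraries overlapped, and neither passed.

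ATP synthase genes lay on both sides of 0 there. Atp5b, the catalytic beta subunit, had 7262, 7964 and 8777 normalised reads in KO and 7010, 6573 and 7268 in WT, and Atp5k, a small membrane subunit, had 757, 940 and 719 in KO and 959, 1155 and 1457 in WT (-0.55, SE 0.20, adjusted p = 0.422). Cox7a1 was the 1 nuclear gene higher without overlap, on 10.03, 9.31 and 11.2 normalised reads in KO and 7.95, 5.58 and 2.65 in WT. None of the lists of mitochondrial transcription (16 genes), RNA handling (17) and ribosome (78) held a called gene, and their medians were 0.01, 0.17 and -0.16.

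In unstimulated CD8 cells the KO and WT libraries overlapped for every mitochondrial gene. mt-Cytb had 261433, 128503 and 172371 normalised reads in KO and 137632, 142256 and 166275 in WT (log2 0.28, SE 0.24, adjusted p = 0.903). KO replicate 1 was the highest and KO replicate 2 the lowest, and KO replicate 1 also had the largest ribosomal share, 3.53% against 0.768% to 1.94% in the others. The median of the 11 mitochondrial genes tested was 0.28 (-0.08 for all genes) and -0.01 without KO replicate 1. Nuclear values were ragged, since a gene could be high in one library and absent from the next. Ndufaf7 had 3067, 0 and 1164 normalised reads in KO and 1538, 3415 and 3421 in WT, and Ndufs4 had 2251, 1084 and 680 in KO and 1580, 3.13 and 453 in WT. Of 88 nuclear genes 4 were higher and 3 lower without overlap, where 3.81% and 4.71% of all genes were. Cox6b1, a complex IV subunit, was among the higher, with 7061, 8336 and 6670 in KO and 5049, 3523 and 4268 in WT (0.79, adjusted p = 0.903). Whether IL-15 changes the KO effect was not tested, since the tables were normalised separately.

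In IEL preparations most nuclear members were higher in the KO libraries. Of 88 nuclear genes 69 were higher in both KO libraries than in both WT libraries and 0 lower, where 14.8% of all genes were higher and 12.3% lower without overlap. These counts use TMM factors (0.950 and 0.977 in KO, 1.06 and 0.983 in WT) and were not made without them. As shares of gene reads, with no such factor, nuclear members made 1.91% ± 0.0354 in KO and 1.71% ± 0.230 in WT (SD, n = 2 each). The median log2 difference was 0.24 against -0.02 for all genes and lay between 0.20 and 0.33 when any 1 IEL library was left out, but no gene passed. Ndufa11, an accessory subunit of complex I, had 82.2 and 78.1 CPM in KO and 60.7 and 61.8 in WT (0.39, SE 0.17, unadjusted p = 0.0498, adjusted p = 1). Cox6a1 had 511 and 508 in KO and 420 and 396 in WT, and Atp5h, of the ATP synthase stalk, had 233 and 222 in KO and 187 and 171 in WT. Epithelial markers moved the same way, with sums of 14918 and 15092 CPM in KO and 14115 and 12925 in WT, and B and plasma cell markers the other way, with 70.6 and 68.9 CPM in KO and 115 and 195 in WT. T cell markers overlapped, at 471 and 973 CPM in KO and 409 and 1345 in WT. Macrophage and dendritic cell markers (32.3 and 37.4 CPM in KO, 35.2 and 71.6 in WT) and immediate early and heat shock genes (7762 and 7704 CPM in KO, 7473 and 9492 in WT) overlapped on this scale, although as shares of gene reads without TMM factors both were lower in both KO libraries and the epithelial markers overlapped. The part of these cells in the result was not tested. Mitochondrial genes showed no such order, with 2 of 13 higher without overlap and a median of 0.06, which was -0.12 without KO replicate 1 and -0.15 without WT replicate 1.

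LPL preparations had 27 of 88 nuclear genes higher and 0 lower in KO without overlap (9.89% and 8.62% of all genes), with a median of 0.21. The median was 0.07 without WT replicate 1, the library with the most T and B cell markers, and 0.42 without WT replicate 2. Uqcrb had 156 and 110 CPM in KO and 85.9 and 103 in WT (log2 0.49, SE 0.20, unadjusted p = 0.0328, adjusted p = 1). The mitochondrial median of 1.06 in KO LPL rested on KO replicate 1 and was -0.66 without it. In tissue 16 nuclear genes were higher and 2 lower without overlap (13.2% and 12.3% of all genes), and 4 and 1 mitochondrial genes. With TMM factors epithelial markers were higher in KO tissue too, at 35601 and 38958 CPM in KO and 26527 and 32621 in WT. As shares of gene reads they overlapped, at 28424 to 30241 CPM in KO and 27266 to 29031 in WT. Mean shares in tissue were lower in KO, at 1.60% against 1.74% for nuclear and 3.04% against 3.53% for mitochondrial members, with overlap. The part of the epithelial markers and of the scale in these counts was not tested. The nuclear median of 0.12 turned to -0.13 without KO replicate 1 and -0.11 without WT replicate 2. Ndufa1 had 80.7 and 86.6 CPM in KO tissue and 64.8 and 62.7 in WT tissue (0.39, SE 0.15, unadjusted p = 0.0297, adjusted p = 1).

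**Figure D5:**
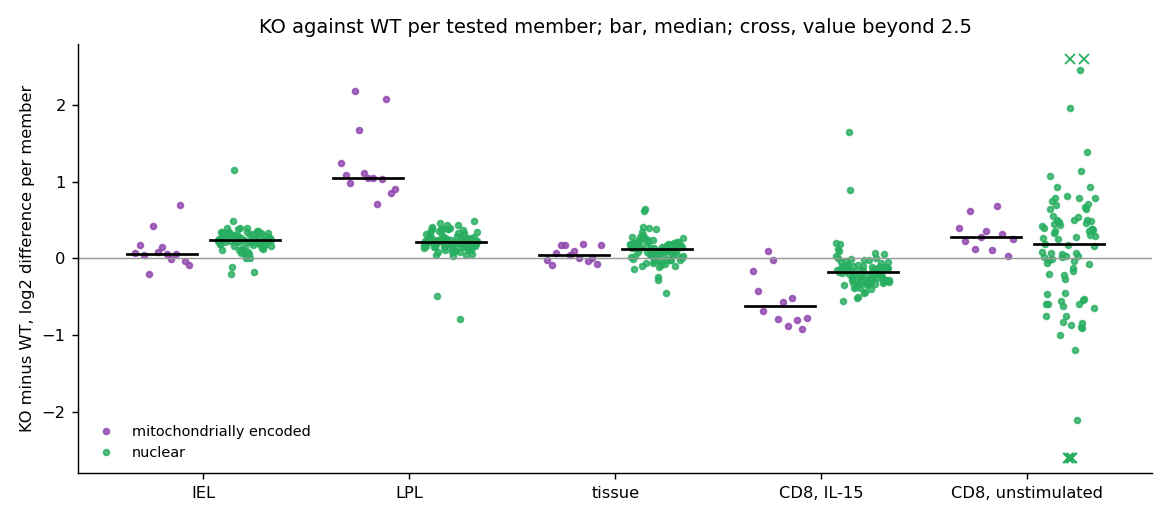
Log2 difference of KO against WT for each tested gene in the 5 sets, with mitochondrial and nuclear genes apart and a bar at the median of each. In the IL-15 set the medians are -0.62 and -0.17 and in IEL 0.06 and 0.24, and 6 genes of the unstimulated set lie beyond the axis and are drawn as crosses at its edge.

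By reads, which also depend on transcript length, Atp5b and Atp5a1, the beta and alpha subunits of ATP synthase, were the highest nuclear members in IEL, LPL and tissue, and Atp5a1 and Sdha, the flavin subunit of complex II, in CD8 cells. Atp5b had 2807 and 2572 CPM in KO IEL and 2464 and 2110 in WT IEL. Some members cannot be read across file types. Sdhd, Uqcr11 and Cox7a2 were at most 1.32 CPM in every tissue, LPL and IEL library, but Cox7a2 had 2176 to 4652 normalised reads in the CD8 tables, Uqcr11 1671 to 4875 and Sdhd 1300 to 4762. Reads shared with near-identical copies, or the gene models used for counting, may have been treated differently in the 2 kinds of file, so the low values of these 3 genes are uncertain. Sdhd and Uqcr11 did not enter the tests there, nor did Cox4i2, Cox7b2, Cox8b, Cox8c and Ndufa4l2, so 101 of 108 members were tested in tissue, LPL and IEL. Of the 108 members that the CD8 tables hold, 101 were tested with IL-15 and 99 without.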

How the data were processed

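Poly(A) RNA of 24 mouse samples was analysed. In the files for tissue, LPL and IEL the authors deposited, per Entrez gene, a raw read count. The file headers name featureCounts and HISAT2 alignments, whereas TopHat, DESeq and mm10 stand beside featureCounts in the submitters' processing notes. For CD8 cells the authors deposited a normalised signal per Ensembl gene, which in every library was a whole read count divided by 1 size factor (100% of values whole within 0.01). The recovered reads gave the depth. Their notes name mm10, mm39, STAR, BWA, TopHat, featureCounts, deepTools, DESeq and DESeq2, with no role for each. Per the labels' protocols, libraries were made with NEBNext Single Cell/Low Input (CD8) and NEBNext Ultra II RNA (the others).

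Symbols were found for 25275 of 27179 Entrez and 51486 of 78275 Ensembl IDs. One edgeR model of 6 groups held all IEL, LPL and tissue libraries (edgeR 4.0.16 in R 4.3.3, quasi-likelihood test, filterByExpr), and CPM of genes and of marker sums use its TMM factors (0.730 to 1.26). Shares of gene reads and reads per kilobase use none. CD8 tables were tested one at a time with limma 3.58.1 (limma-trend) on log2(value + 1), after genes with a mean under 5 were dropped. That scale understates changes of low genes. P-values were adjusted by Benjamini-Hochberg over all genes tested, with calls under 0.05, and the fits were tested on simulated data. "Without overlap" means that every KO library lay on one side of every WT library. Alternatives were DESeq2 1.42.0, RLE factors, other filters and pseudocounts, library sizes without mitochondrial genes, a replicate block, fits of the compared groups only and leaving out each library. In the CD8 tables the library sizes without mitochondrial genes were total reads, which took the place of the deposited size factors.

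The members, lists and tests were chosen with earlier results of these data known. Named genes were the mitochondrial members, 7 families of isoforms, the Sdh genes, the 4 nuclear members of smallest p in each direction per comparison, the 2 highest and 2 lowest per set, and up to 3 of smallest p per pathway list. Atp5k, Atp5l, Atp5md, Ndufa7, Lct, Ddx3y and Polrmt in LPL, and genes named beside counts of 5 or fewer, were chosen after their values were seen.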

Additional observations from a re-analysis of the deposited data

Results flagged for a closer look

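The nuclear members' share of gene reads lay on opposite sides in KO and WT in 2 sets. The KO mean was 0.206 percentage points above the WT mean in IEL, at 1.91% ± 0.0354 against 1.71% ± 0.230 (SD, n = 2 each). Both KO libraries lay above both WT libraries there. WT replicate 2 was the lowest at 1.54%, and WT replicate 1 lay close to the KO libraries. In CD8 IELs cultured in IL-15 the KO minus WT difference was -0.0573 points, and all KO libraries lay below all WT libraries. The difference between the sets was not tested, since they were counted and normalised separately and differ in library kit and cells.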

How the results depend on the processing

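Of 4975 values of named genes under alternatives 396 changed sign, and 0 of these sign changes touched a called gene. Of 284 medians 25 changed sign, and a median carries no call. Counts of calls depended on the setting. The 8 lower nuclear genes in IEL against tissue became 3 without the filter on low counts, 5 with a replicate block and 15 with DESeq2. In LPL against tissue 46 members were called, against 24 in a fit of those groups alone. Of these the 5 higher nuclear genes became 3 with the replicate block, and the 30 lower ones 17 without the filter and 11 in the fit of those groups alone. Between IEL and LPL 3 members were called, against 16 with the replicate block, all nuclear, and 6 with DESeq2 (5 nuclear, 1 mitochondrial). In the IL-15 set DESeq2 on recovered reads, chosen after seeing the data, called 3 members against 0. In the 250 bases before the start 1 window held the YY1 core against 11, and 19 held any core against 34, where fewer bases were searched. The cause of the other changes was not tested.

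Leaving out 1 library gave 15 to 21 members called in IEL against tissue (23 with all), 24 to 43 in LPL against tissue and 0 to 13 in IEL against LPL. Mitochondrial genes called numbered 12 to 13, 4 to 13 and 0 to 13 in these comparisons, and nuclear genes called higher 1 to 5, 4 to 7 and 0 to 2. Nuclear genes called lower numbered 2 to 4 in IEL and 11 to 28 in LPL against tissue. KO against WT gave 0 members with any library left out, and over all genes 3 in tissue without KO replicate 1, 4 in LPL without WT replicate 2 and 1 in the IL-15 set without WT replicate 3. The labels do not say that a replicate number marks shared animals. Deviations of same-numbered KO and WT libraries correlated in IEL (0.421), LPL (0.273) and tissue (0.615), with 2 pairs each, and between -0.057 and 0.001 in CD8 cells, where not every library correlated best with its own number. The replicate block left the KO against WT counts at 0, while genes at an unadjusted p under 0.05 numbered 569 in IEL, 678 in LPL and 1727 in tissue under the block.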
